A study of Mus musculus with 18 samples.

Results

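Cholesterol synthesis, SREBP and LXR genes were followed in mouse bone marrow-derived dendritic cells that were knockout (KO) or wild type (WT) and were treated with lipopolysaccharide (LPS) or left as controls. LPS, a component of the outer membrane of bacteria, activates dendritic cells through a Toll-like receptor. The genes were the rows of the deposited table whose symbol stood on a list of 33, and all 33 were found among the 16614 genes of the table. All 33 also passed the filter on low counts, which kept 11989 genes for testing. The members comprised 17 enzymes of cholesterol synthesis, the thiolase Acat2, 5 genes of the SREBP system, the 2 LXR receptors, 4 efflux and LXR target genes, and 4 genes of sterol transport and esterification.

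RNA was sequenced from 5 KO LPS, 5 WT LPS, 4 KO control and 4 WT control libraries. Bone marrow had been grown with GM-CSF and Flt3L for 7 to 10 days in all groups, and cells positive for the chemokine receptor Xcr1 had been enriched, either on a flow sorter or with magnetic beads. The labels give neither the deleted gene, its promoter or driver line, the age of the mice, the LPS dose and duration, nor which enrichment each sample had. They also do not say whether replicates were separate animals or cultures, so p-values measure the spread between these samples, which may be technical.

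Cholesterol is built from acetyl-CoA through the mevalonate pathway to squalene, which is closed into lanosterol and then trimmed to cholesterol. When sterols run low in the endoplasmic reticulum, Scap escorts the SREBP proteins to the Golgi for cleavage, and the released fragments switch on the synthesis genes; Insig proteins hold Scap back when sterols are plentiful. The LXR receptors respond to oxysterols and switch on cholesterol export and the degradation of lipoprotein receptors, so that synthesis and efflux are usually regulated in opposite directions.

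All 9 markers of type 1 conventional dendritic cells were detected in every group, with sums of 5570 to 6430 CPM in KO LPS, 5890 to 7270 CPM in WT LPS, 6920 to 8080 CPM in KO control and 7560 to 7870 CPM in WT control libraries. CPM values are estimated counts scaled to a common library size, here by TMM, a normalisation for differences in RNA composition. In this bulk RNA, fewer cells of a type and less RNA per cell cannot be told apart. WT LPS replicate 2 stood apart, with a median absolute deviation from its group of 0.211 on the log2 scale over all genes, against at most 0.121 in the other libraries. The mean log2 CPM of 14 monocyte and macrophage markers was 5.25 in KO LPS replicate 2 and 5.38 in WT LPS replicate 2, and 4.60 to 4.95 in the other LPS libraries. Calls among the members that change without either library are given with and without it.

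LPS raised most of the cholesterol synthesis pathway in both genotypes. Of the 33 members, 25 rose and 7 fell with LPS in KO cells, and 25 rose and 5 fell in WT cells, at an edgeR Benjamini-Hochberg adjusted p under 0.05. The background of calls was high. Of all genes tested, 86.2% were called in KO, 40% higher and 46.2% lower, and 85.5% were called in WT, 40.7% higher and 44.7% lower. A share of members called in either direction is therefore near the background (97% in KO, 90.9% in WT), whereas 75.8% of the members were called higher in each genotype. Among the 17 synthesis enzymes, 14 rose in each genotype, with a median log2 fold change of 2.42 in KO and 2.36 in WT over the whole list, beside -0.10 and -0.06 over all genes tested. Other lists moved with LPS too. Of 20 cell cycle genes, 15 fell and 1 rose in KO and 18 fell and 1 rose in WT, and the summed plasmacytoid dendritic cell markers were 537 to 591 CPM in KO LPS against 84.4 to 90.8 CPM in KO control and 466 to 671 CPM in WT LPS against 80.5 to 81.3 CPM in WT control, with 2 of 4 tested markers higher and 2 lower in each genotype. Their part in the synthesis values was not tested.

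**Figure D1:**
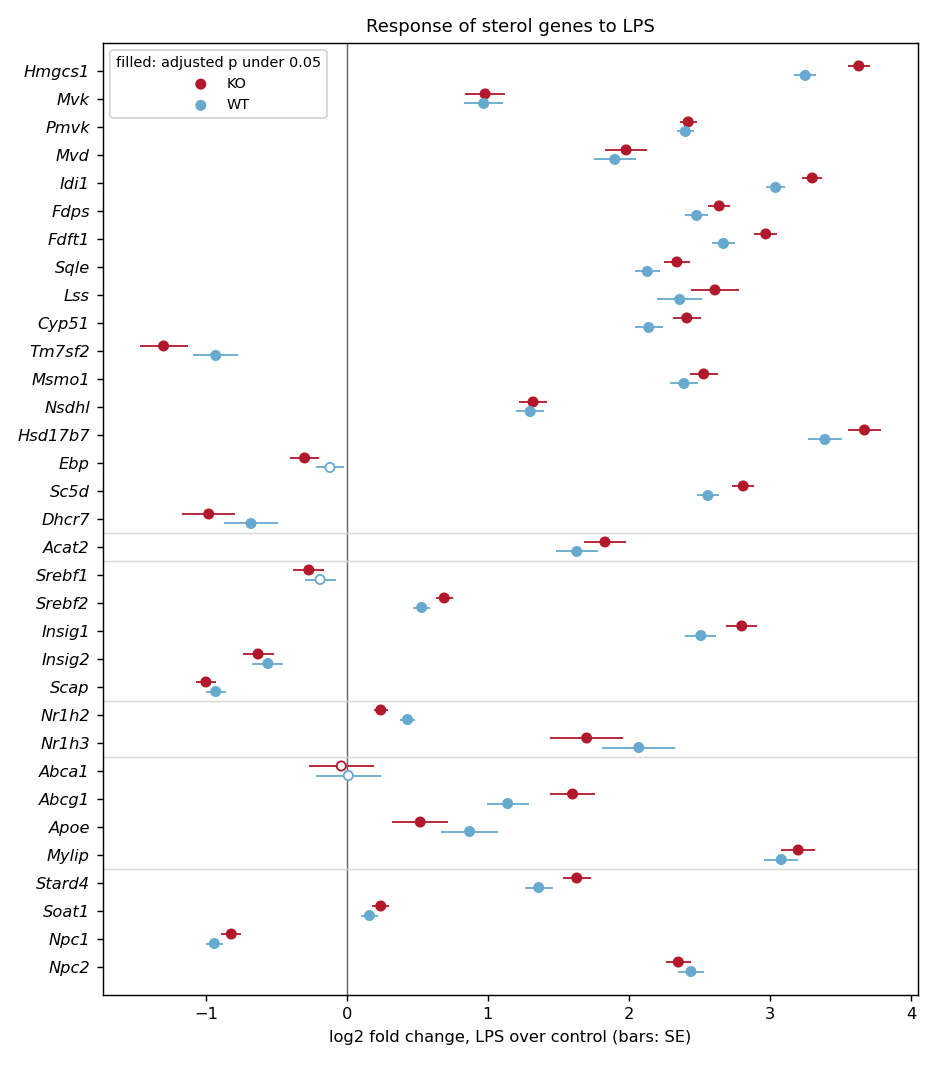
Log2 fold change of LPS over control (horizontal axis) for each of the 33 genes, in KO (upper point of each pair) and WT (lower point), with SE bars and filled points for an adjusted p under 0.05. Synthesis enzymes from Hmgcs1 to Dhcr7 run down the page in pathway order, and 14 of the 17 lie at 0.97 or above in both genotypes, while Tm7sf2, Ebp and Dhcr7 lie below 0.

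The early enzymes, from Hmgcs1 to Fdps, were all called higher, and every one of the 14 risers had an edgeR adjusted p of 1.6e-06 or less in both genotypes. Hmgcs1, which makes the HMG-CoA that enters the pathway, had 1720, 1740, 1760, 1780 and 1690 CPM in KO LPS libraries, against 151, 121, 137 and 151 CPM in KO control libraries. In WT it had 1690, 1490, 1680, 1730 and 1570 CPM with LPS, against 190, 160, 179 and 155 CPM in control. Every LPS library lay above every control library, and the log2 fold change was 3.63 ± 0.08 (SE) in KO and 3.25 ± 0.08 in WT, or 12.4-fold and 9.54-fold.

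Idi1, the isopentenyl diphosphate isomerase, had 1030 to 1150 CPM in KO LPS against 104 to 123 CPM in KO control, and 875 to 1020 CPM in WT LPS against 102 to 124 CPM in WT control. Its log2 fold change was 3.30 ± 0.07 in KO and 3.04 ± 0.07 in WT. The kinase Pmvk rose by 2.42 in KO and 2.40 in WT, the decarboxylase Mvd by 1.98 and 1.90, and the farnesyl diphosphate synthase Fdps by 2.64 and 2.48. Mvk, the mevalonate kinase, had the smallest rise of the 14, with 22.8 to 26.6 CPM in KO LPS against 11.6 to 13.5 CPM in KO control and 16.1 to 31.5 CPM in WT LPS against 11.8 to 15.2 CPM in WT control. Its log2 fold change was 0.98 ± 0.14 in KO and 0.97 ± 0.14 in WT, and with total-count scaling it was 0.20 in KO and 0.24 in WT and was not called (edgeR adjusted p = 0.23 and 0.15).

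The steps that make and close squalene rose as well. Fdft1, the squalene synthase, rose by 2.97 in KO and 2.67 in WT, and Sqle, the squalene epoxidase and a rate-limiting enzyme of the later pathway, by 2.34 and 2.13. Lss, which closes the ring to lanosterol, rose by 2.61 and 2.36, and Cyp51, the lanosterol demethylase, by 2.41 and 2.14. The LPS and control libraries did not overlap for any of these 4 enzymes in either genotype.

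The enzymes after lanosterol split into those that rose and 3 that did not. Hsd17b7, which reduces the 3-keto group during demethylation, had 101, 96.9, 104, 102 and 105 CPM in KO LPS, against 9.52, 6.86, 7.15 and 8.51 CPM in KO control. In WT it had 113, 81.6, 112, 115 and 99.3 CPM with LPS, against 11.1, 8.08, 10.4 and 10.2 CPM in control. This was the largest log2 fold change among the 33 members, 3.67 ± 0.12 in KO and 3.39 ± 0.12 in WT, within the SE of Hmgcs1 in KO. Its partners in demethylation, Msmo1 (2.53 in KO, 2.39 in WT) and Nsdhl (1.32 and 1.30), rose, as did Sc5d, the sterol C5-desaturase (2.81 and 2.56).

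Tm7sf2, a sterol C14-reductase, went the other way. It had 1.33, 1.73, 1.53, 2.00 and 1.65 CPM in KO LPS, against 3.30, 4.16, 4.26 and 4.52 CPM in KO control, and 2.28, 1.33, 2.45, 2.57 and 1.90 CPM in WT LPS, against 3.68, 5.17, 3.72 and 3.64 CPM in WT control. It fell by 1.30 in KO (SE 0.17, edgeR adjusted p = 6.7e-07) and by 0.93 in WT (SE 0.16, adjusted p = 2.6e-05), with no overlap between LPS and control libraries. Dhcr7, which makes cholesterol from 7-dehydrocholesterol, also fell, by 0.98 in KO (SE 0.19, edgeR adjusted p = 0.00011) and by 0.68 in WT (SE 0.19, adjusted p = 0.0028). Its levels were 11.5, 13.5, 17.9, 14.3 and 15.4 CPM in KO LPS against 29.5, 28.9, 27.6 and 28.6 CPM in KO control, and 21.3, 7.81, 23.3, 23.9 and 17.8 CPM in WT LPS against 31.8, 30.9, 30.3 and 27.8 CPM in WT control. Even the highest LPS library lay below the lowest control library of its genotype.

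Ebp, the sterol isomerase, had 25.1 to 29.2 CPM in KO LPS against 31.3 to 37.3 CPM in KO control, and 23.2 to 38.2 CPM in WT LPS against 32.5 to 36.1 CPM in WT control. It fell by 0.30 in KO (SE 0.10, edgeR adjusted p = 0.013), a call that ended with DESeq2 (-0.20, adjusted p = 0.065), with RLE scaling (-0.20, adjusted p = 0.066) and without KO control replicate 4 (-0.24, adjusted p = 0.050). In WT its log2 fold change was -0.12 ± 0.10 and was not called (edgeR adjusted p = 0.27). Acat2, a cytosolic thiolase that supplies acetoacetyl-CoA, rose by 1.83 in KO and 1.63 in WT.

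The promoters of these enzymes are shown because the genes moved together. RefSeq windows of build GRCm38.p6, from 250 bases before to 50 bases after an annotated start site, were at hand for 27 of the 33 members, 38 windows in all, and are written 5′ to 3′ on the strand of the gene. They were searched on both strands for the sterol regulatory element TCACNCCAC, for the CCAAT box CCAAT, the element bound by NF-Y, and for an LXR element of the half-site GGTCA repeated on one strand with 5 bases between, which is a direct repeat of hexamers 4 bases apart; matches are in capitals, and ATTGG is the CCAAT box on the opposite strand. The windows below are those of Hmgcs1 (chr13:119690101-119690400, plus strand), Idi1 (chr13:8885356-8885655, plus strand), Hsd17b7 (chr1:169969156-169969455, minus strand) and, of the enzymes that fell, Dhcr7 (chr7:143829964-143830263, plus strand, one of 3 start sites).
Hmgcs1: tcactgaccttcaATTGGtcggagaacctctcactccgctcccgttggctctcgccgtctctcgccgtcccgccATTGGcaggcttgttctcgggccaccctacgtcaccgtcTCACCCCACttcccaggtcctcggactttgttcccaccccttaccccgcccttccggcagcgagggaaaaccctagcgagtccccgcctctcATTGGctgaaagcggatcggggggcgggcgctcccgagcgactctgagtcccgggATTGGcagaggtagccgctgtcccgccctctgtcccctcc
Idi1: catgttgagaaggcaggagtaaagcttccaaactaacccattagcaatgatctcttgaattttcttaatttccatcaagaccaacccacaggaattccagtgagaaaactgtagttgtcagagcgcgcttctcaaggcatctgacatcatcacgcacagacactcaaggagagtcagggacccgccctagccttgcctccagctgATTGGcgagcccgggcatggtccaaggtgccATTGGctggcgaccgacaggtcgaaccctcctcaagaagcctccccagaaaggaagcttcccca
Hsd17b7: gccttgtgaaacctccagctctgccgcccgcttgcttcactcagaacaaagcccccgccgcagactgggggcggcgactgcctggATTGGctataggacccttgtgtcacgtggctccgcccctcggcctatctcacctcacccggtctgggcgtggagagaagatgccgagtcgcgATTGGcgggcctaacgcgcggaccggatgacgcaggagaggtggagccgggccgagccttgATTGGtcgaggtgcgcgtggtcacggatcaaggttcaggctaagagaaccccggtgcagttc
Dhcr7: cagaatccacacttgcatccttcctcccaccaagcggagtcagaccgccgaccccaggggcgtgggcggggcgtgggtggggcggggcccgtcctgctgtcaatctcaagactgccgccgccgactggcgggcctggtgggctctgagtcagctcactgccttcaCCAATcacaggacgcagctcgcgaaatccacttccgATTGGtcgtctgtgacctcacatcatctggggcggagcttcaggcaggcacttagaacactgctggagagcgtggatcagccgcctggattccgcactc

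Each of the 14 synthesis enzymes with a window held a CCAAT box in at least 1 window, and 14 of their 17 windows held one (82.4%). Over all genes with a window 41.1% held the box, and 37.4% of all windows did. The sterol regulatory element in these exact letters was found in Hmgcs1 alone of the 27 members, at bases 114 to 122 of the window, and in 1.44% of all genes. Sterol regulatory elements with other letters were not searched. Enzymes that rose and enzymes that fell alike held the CCAAT box in at least 1 window, so the letters did not separate them. Dhcr7 has 2 in the window shown and none in its other 2 windows, Ebp has 2 and Tm7sf2 has 1. A match is a description of the sequence, and binding was not measured.

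**Figure D2:**
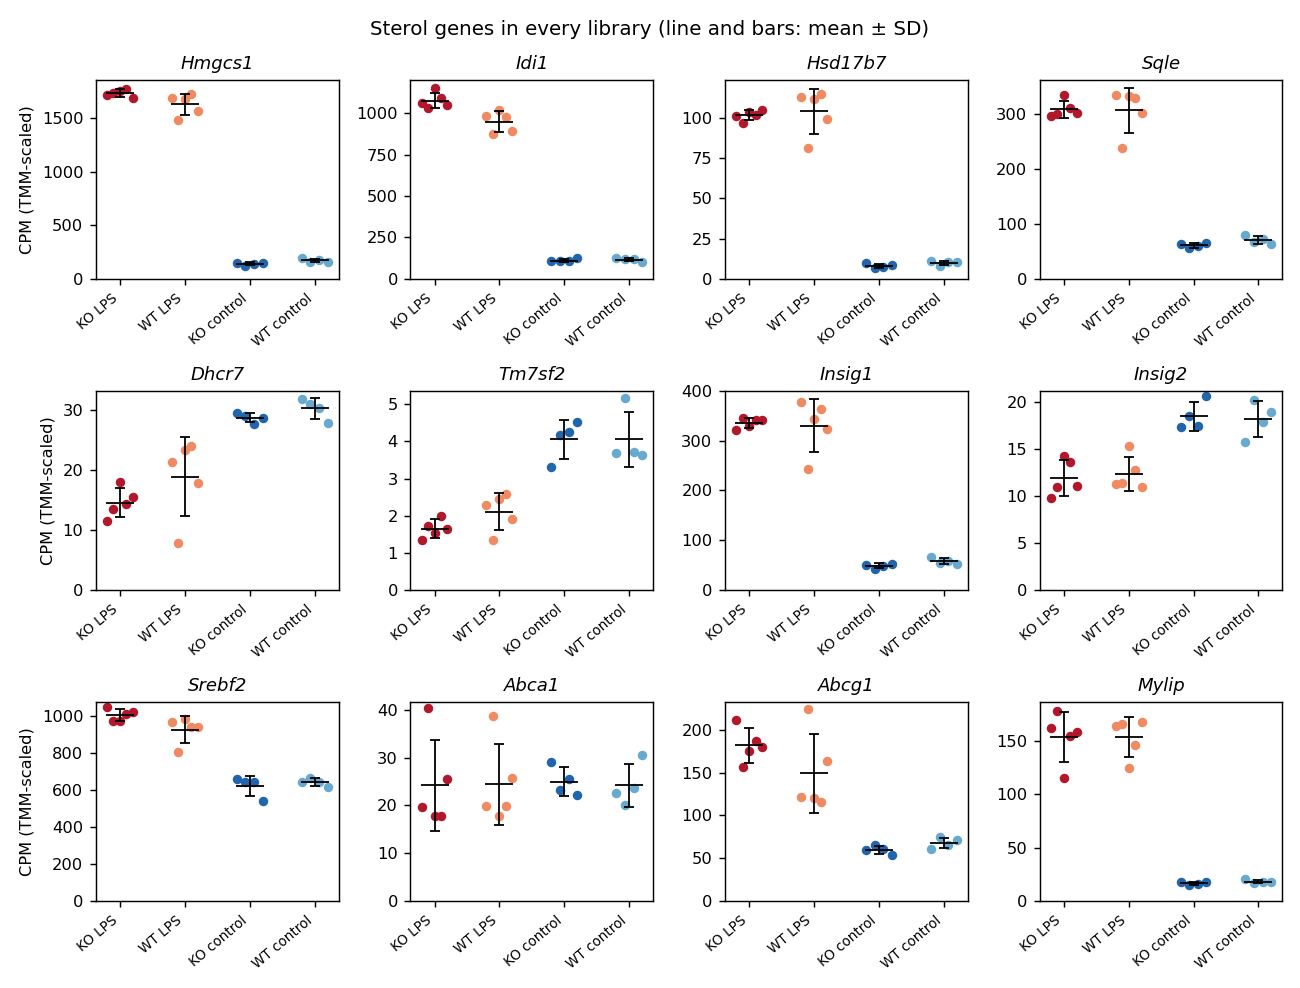
CPM (vertical axes, linear, TMM-scaled) of 12 of the genes in every library, with the mean and SD as a line and bars, in KO LPS, WT LPS, KO control and WT control. The LPS libraries of Hmgcs1, Idi1, Hsd17b7, Sqle, Insig1 and Mylip all lie above the control libraries, those of Dhcr7 and Tm7sf2 lie below, and those of Abca1 overlap.

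Within the SREBP system, the genes differed in direction. Insig1, a feedback inhibitor that is itself an SREBP target, had 322, 346, 330, 342 and 341 CPM in KO LPS against 50.8, 41.8, 47.6 and 52.7 CPM in KO control, and 378, 243, 344, 364 and 323 CPM in WT LPS against 66.0, 54.4, 58.2 and 52.8 CPM in WT control. It rose by 2.80 ± 0.11 in KO and 2.51 ± 0.11 in WT. Its paralog Insig2 fell by 0.63 in KO (SE 0.11, edgeR adjusted p = 3.3e-05) and by 0.56 in WT (SE 0.11, adjusted p = 0.00013), with 9.73 to 14.2 CPM in KO LPS against 17.3 to 20.6 CPM in KO control and 10.9 to 15.3 CPM in WT LPS against 15.7 to 20.2 CPM in WT control.

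Scap, the escort of the SREBP precursors, fell by 1.00 in KO and by 0.93 in WT, with SE 0.07 in both. Srebf2, the gene of SREBP-2, which mainly drives cholesterol synthesis, rose by 0.69 ± 0.06 in KO and 0.53 ± 0.06 in WT, and with total-count scaling turned to -0.09 and -0.21. It averaged 1000 CPM in KO LPS against 620 CPM in KO control and 927 CPM in WT LPS against 642 CPM in WT control. Srebf1, the gene of SREBP-1, which mainly drives fatty acid synthesis, fell by 0.27 in KO (SE 0.11, edgeR adjusted p = 0.025), a call that ended with DESeq2 (adjusted p = 0.12), with RLE scaling (adjusted p = 0.11), without KO LPS replicate 2 (adjusted p = 0.071) and without KO control replicate 1 (adjusted p = 0.050). In WT its log2 fold change was -0.19 ± 0.11 and was not called (edgeR adjusted p = 0.11).

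The LXR receptor genes were called higher in both genotypes, and the rise of Nr1h2, unlike that of Nr1h3, depended on the scaling. Nr1h3, which encodes LXR alpha, had 5.32, 11.4, 5.19, 5.36 and 6.01 CPM in KO LPS against 1.94, 2.14, 1.60 and 2.51 CPM in KO control, and 6.14, 11.2, 5.68, 5.49 and 6.65 CPM in WT LPS against 2.07, 1.62, 1.22 and 1.76 CPM in WT control. The libraries numbered replicate 2 held the highest value in each LPS group, and every LPS library lay above every control library. The log2 fold change was 1.70 ± 0.26 in KO and 2.07 ± 0.26 in WT. It lay between 1.42 and 1.81 in KO and between 1.84 and 2.19 in WT when each library was left out in turn, and was called every time. Nr1h2, which encodes LXR beta, rose by 0.24 ± 0.05 in KO and 0.43 ± 0.05 in WT, and with total-count scaling turned to -0.54 and -0.31.

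The efflux and LXR target genes did not move as a block. Mylip, which encodes IDOL, a ubiquitin ligase that marks lipoprotein receptors for degradation and is an LXR target, had 162, 178, 115, 154 and 158 CPM in KO LPS against 18.1, 15.0, 16.2 and 17.5 CPM in KO control. In WT it had 164, 166, 124, 146 and 167 CPM with LPS against 20.5, 16.5, 17.7 and 17.7 CPM in control. It rose by 3.20 ± 0.12 in KO and 3.08 ± 0.12 in WT, below Hsd17b7 and Hmgcs1 and near Idi1 in both genotypes.

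Abcg1, an exporter of cholesterol to high-density lipoprotein, had 212, 156, 175, 187 and 180 CPM in KO LPS against 59.7, 65.1, 60.8 and 54.0 CPM in KO control, and 122, 224, 120, 116 and 164 CPM in WT LPS against 61.2, 74.2, 65.0 and 70.7 CPM in WT control. It rose by 1.60 ± 0.16 in KO and 1.14 ± 0.15 in WT. Abca1, the exporter to lipid-poor apolipoproteins, was not called. Its levels were 19.7, 40.4, 17.9, 17.9 and 25.5 CPM in KO LPS against 29.2, 23.2, 25.5 and 22.2 CPM in KO control, and 19.9, 38.7, 17.9, 19.9 and 25.8 CPM in WT LPS against 22.6, 20.2, 23.6 and 30.6 CPM in WT control. The groups overlapped, and the log2 fold change was -0.04 ± 0.23 in KO and 0.01 ± 0.23 in WT (edgeR adjusted p = 0.86 and 0.98).

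Apoe, the apolipoprotein E gene, had 569, 955, 562, 587 and 678 CPM in KO LPS against 450, 440, 430 and 554 CPM in KO control, and 613, 1230, 574, 584 and 808 CPM in WT LPS against 416, 386, 363 and 499 CPM in WT control. It rose by 0.52 ± 0.20 in KO (edgeR adjusted p = 0.021) and by 0.87 ± 0.20 in WT (adjusted p = 0.00049), and with total-count scaling the values were -0.26 and 0.11, neither called. Without KO LPS replicate 2 the KO value was 0.35 and was not called (edgeR adjusted p = 0.085), and the call also ended without KO control replicate 2 (0.49, adjusted p = 0.051) or replicate 3 (0.48, adjusted p = 0.055).

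For comparison, the promoter windows of Mylip (chr13:45389492-45389791, plus strand), which rose, and Abca1 (chr4:53159846-53160145, minus strand), which was not called, are given in the same way.
Mylip: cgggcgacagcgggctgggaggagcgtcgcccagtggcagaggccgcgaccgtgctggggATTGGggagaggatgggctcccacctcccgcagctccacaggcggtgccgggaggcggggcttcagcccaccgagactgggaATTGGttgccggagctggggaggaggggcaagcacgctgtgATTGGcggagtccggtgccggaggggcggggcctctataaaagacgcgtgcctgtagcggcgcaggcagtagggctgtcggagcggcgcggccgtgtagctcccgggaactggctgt
Abca1: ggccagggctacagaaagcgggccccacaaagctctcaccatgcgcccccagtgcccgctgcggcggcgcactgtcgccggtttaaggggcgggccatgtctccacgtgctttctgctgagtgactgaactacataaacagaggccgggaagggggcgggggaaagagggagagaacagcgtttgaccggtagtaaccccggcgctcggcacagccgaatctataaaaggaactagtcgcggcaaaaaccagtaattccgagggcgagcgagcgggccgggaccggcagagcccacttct
Mylip has 3 CCAAT boxes and Abca1 has none in these windows. This pair does not stand for all members. Of the 27 members with a window, 21 held the box in at least 1 window. The others without it were Acat2, Apoe, Nr1h2 and Nr1h3, which were called higher with LPS, and Scap, which was called lower. Insig2, which fell, has 3 in 1 of its windows. The LXR element in the letters given was found in none of the 27 members with a window. No mismatch was allowed, and 23 of 27025 genes (0.0851%) matched, so finding none among 27 was nearly fixed in advance. It says nothing of elements outside these 300 bases or with other letters. It does not show that the Abca1 window, or any other, lacks an LXR element.

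Nr1h3, Abca1 and Apoe were highest in the LPS libraries with the highest mean log2 level of monocyte and macrophage markers. The marker Mertk also stands on the list of LXR partners and other LXR targets. The marker list was detected whole, 14 of 14 genes with none at 0 in any group, with summed levels of 1320 to 2020 CPM in KO LPS, 1490 to 1940 CPM in WT LPS, 2030 to 2300 CPM in KO control and 1920 to 2030 CPM in WT control. Their mean log2 CPM was 4.82 ± 0.26 in KO LPS against 4.23 ± 0.12 in KO control and 4.84 ± 0.34 in WT LPS against 3.99 ± 0.20 in WT control (SD, n = 5 and 4). With LPS, 8 of the 14 markers were called higher and 4 lower in KO (median log2 fold change 0.63), and 9 higher and 2 lower in WT (median 1.00). The summed level was thus mostly lower with LPS and the mean log2 level higher. Replicate 2 of each LPS group had the highest mean of these markers and the highest Nr1h3, Abca1 and Apoe of its group. Abcg1 differed, as it was lowest in KO LPS replicate 2 (156 CPM, against 175 to 212 CPM in the other KO LPS libraries). In WT LPS replicate 2 Abcg1 was highest (224 CPM, against 116 to 164 CPM). Mylip was highest in replicate 2 of KO LPS (178 CPM) but not of WT LPS. Without these 2 libraries, Abca1 ranged from 17.9 to 25.5 CPM in KO LPS and from 17.9 to 25.8 CPM in WT LPS, and Nr1h3 from 5.19 to 6.01 CPM and from 5.49 to 6.65 CPM. The part of such cells in these levels was not tested.

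**Figure D3:**
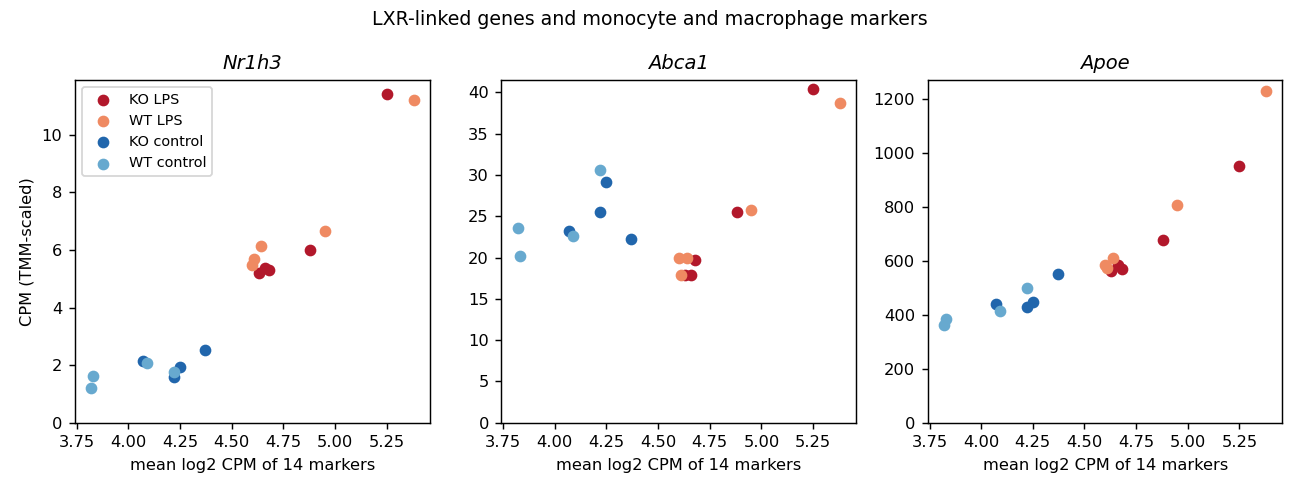
CPM (vertical axes, linear, TMM-scaled) of Nr1h3, Abca1 and Apoe against the mean log2 CPM of 14 monocyte and macrophage markers (horizontal axes), 1 point per library in KO LPS, WT LPS, KO control and WT control. The 2 points farthest right, at 5.25 and 5.38, are the LPS libraries numbered replicate 2 and have the highest values in each panel.

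Genes that move and store sterols were mixed. Npc2, which carries cholesterol inside lysosomes, rose to means of 1410 CPM in KO LPS against 276 CPM in KO control and 1270 CPM in WT LPS against 233 CPM in WT control, by 2.35 ± 0.09 in KO and 2.44 ± 0.09 in WT. Its membrane partner Npc1 fell by 0.82 in KO and by 0.94 in WT. Stard4, a cytosolic sterol carrier, rose by 1.63 in KO and 1.36 in WT. Soat1, which esterifies cholesterol for storage, rose by 0.24 ± 0.06 in KO and 0.16 ± 0.06 in WT, and with total-count scaling turned to -0.54 and -0.58. Its WT LPS and WT control libraries overlapped, and without the low-count filter the WT value was 0.11 and was not called (edgeR adjusted p = 0.11), nor was it without WT control replicate 1 (0.13, adjusted p = 0.064).

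Scaling bears on the small changes. With total-count scaling the median log2 fold change of LPS over all genes was -0.88 in KO and -0.80 in WT, against -0.10 and -0.06 with TMM, and calls among all genes were 20.2% higher and 70.4% lower in KO and 19.8% and 69.9% in WT. Among the members, 20 were then higher and 10 lower in KO, and 20 higher and 11 lower in WT. Abca1 was then called lower, at -0.82 in KO and -0.75 in WT (edgeR adjusted p = 0.0014 and 0.0029), and so in WT were Ebp (-0.86, adjusted p = 1.3e-06) and Srebf1 (-0.92, adjusted p = 8.9e-07). Srebf2, Nr1h2, Soat1, Apoe and Abca1 lay above the median of all genes under both scalings. A change of scaling shifts all genes by nearly the same amount, so that position was nearly fixed in advance and tests nothing. With TMM, Abca1 lay near the median, at -0.04 in KO against -0.10 and at 0.01 in WT against -0.06. Of the synthesis enzymes, 13 were still called higher in each genotype.

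Synthesis was set against efflux by the mean log2 CPM of the 17 enzymes minus that of Abca1, Abcg1, Apoe and Mylip, as a description with no test. This difference averaged -0.04 ± 0.27 in KO LPS (SD, n = 5), 0.01 ± 0.62 in WT LPS (n = 5), -0.70 ± 0.06 in KO control (n = 4) and -0.58 ± 0.20 in WT control (n = 4). Both terms were higher with LPS. The enzymes averaged 7.11 in KO LPS against 5.17 in KO control and 7.13 in WT LPS against 5.31 in WT control. The 4 efflux and LXR target genes averaged 7.16 against 5.87 and 7.12 against 5.88. Within that set Mylip, which encodes a ubiquitin ligase and no exporter, changed most, by 3.2 in KO and 3.08 in WT. The LPS change was 1.6 and 1.14 for Abcg1, 0.52 and 0.87 for Apoe, and -0.04 and 0.01 for Abca1. The LPS effect on the difference was 0.65 in KO and 0.58 in WT, and 0.83 in WT without WT LPS replicate 2. That library had the lowest enzymes (6.68) and the highest efflux genes (7.68) of all LPS libraries, a difference of -1.

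**Figure D4:**
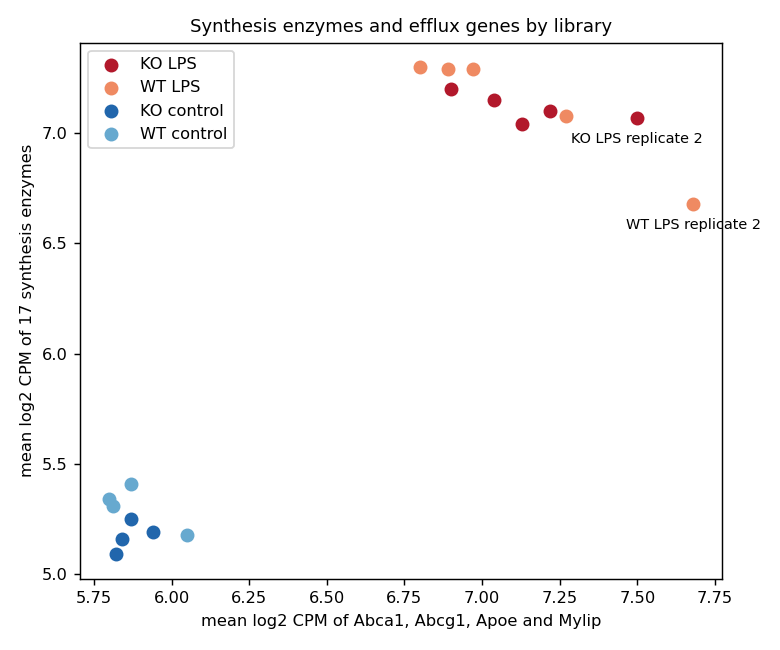
Mean log2 CPM of the 17 synthesis enzymes (vertical axis) against that of Abca1, Abcg1, Apoe and Mylip (horizontal axis), 1 point per library in KO LPS, WT LPS, KO control and WT control. LPS libraries lie at 6.68 or above and control libraries at 5.41 or below on the enzyme axis, and WT LPS replicate 2 lies lowest and farthest right among the LPS libraries.

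Per transcript length, the order of the members changed with LPS. In TPM, the deposited abundance corrected for transcript length, Apoe had the highest level of the 33 in both control groups (894 ± 80.8 TPM in KO, 869 ± 123 in WT, SD, n = 4), followed by Srebf2 (265 ± 31.7 and 299 ± 11.6) and Fdps (205 ± 11.9 and 249 ± 19.3). With LPS, Fdps stood at 813 ± 38.1 TPM in KO and 834 ± 117 TPM in WT (SD, n = 5), which did not differ from Apoe beyond the spread (817 ± 209 and 947 ± 291), and Hmgcs1 came next at 641 ± 20.7 and 624 ± 64.9. Tm7sf2 had the lowest level with LPS, 1.66 ± 0.261 TPM in KO and 2.22 ± 0.616 TPM in WT, and Nr1h3 the lowest in controls, 2.54 ± 0.428 TPM in KO and 2.26 ± 0.392 TPM in WT.

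Between genotypes in control cells, 1 of the 33 members was called. Hmgcs1 fell to 140 ± 14.5 CPM in KO control, against 171 ± 16.5 CPM in WT control (SD, n = 4 each), by 0.29 on the log2 scale (SE 0.07, edgeR adjusted p = 0.047). The libraries of the genotypes did not overlap. Over all genes 2.41% were called in this comparison, 1.89% higher and 0.525% lower. The call held in 5 of 18 fits that left out a library (adjusted p = 0.014 to 0.18), ended with total-count scaling (adjusted p = 0.059) and without the low-count filter (adjusted p = 0.053), and the value stayed between -0.33 and -0.22. At an unadjusted p under 0.05 there were 9 members lower and 2 higher in KO.

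The synthesis enzymes shared a direction in control cells. Of 17, 15 had a negative and 2 a positive log2 fold change, with a median of -0.14, beside 0.02 over all genes, of which 6852 were positive and 5123 negative. Values of -0.20 or lower were found in Hsd17b7 (-0.31 ± 0.12), Hmgcs1, Lss (-0.28 ± 0.17), Cyp51 (-0.24 ± 0.10), Fdft1 (-0.22 ± 0.08) and Sqle (-0.21 ± 0.09). Acat2 was at -0.35 ± 0.16 and Insig1 at -0.26 ± 0.11, neither called with all libraries. For both, the KO libraries were all lower than the WT ones. These genes are known to be regulated together and are not independent.

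WT LPS replicate 2 is in neither compared group. It enters this comparison through the shared estimate of spread, the filter on low counts and the scaling. Without it, 7 members were called lower and 1, Npc2, higher in KO control, among 6.28% of all genes. Beside Hmgcs1, the lower ones were Acat2 (-0.35, edgeR adjusted p = 0.011), Soat1 (-0.19, adjusted p = 0.025) and Lss (-0.28, adjusted p = 0.033). Fdft1 (-0.22, adjusted p = 0.036), Insig1 (-0.26, adjusted p = 0.037) and Cyp51 (-0.24, adjusted p = 0.042) were lower too. When the fit held control libraries alone, 9 members were lower and 1 higher, among 7.71% of all genes. The mean log2 CPM of 20 cell cycle genes in KO control was 6.07 ± 0.06 against 6.41 ± 0.08 in WT control (SD, n = 4 each), their summed levels were 1940 to 2050 CPM against 2330 to 2660 CPM, and 2 of the 20 were called lower, with none at 0. The monocyte and macrophage markers had a mean log2 CPM of 4.23 ± 0.12 in KO control and 3.99 ± 0.20 in WT control. Neutrophil marker sums were 0.337 to 1.62 CPM in KO control against 0.361 to 23.1 CPM in WT control, and 0.41 to 1.9 CPM in KO LPS against 0.405 to 77.8 CPM in WT LPS; the 2 of 7 that were tested were not called. The part of these lists in the differences between genotypes was not tested.

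With LPS, 0 of the 33 members were called between KO and WT by edgeR, and 2 had an unadjusted p under 0.05. Over all genes 10.8% were called, 5.3% higher and 5.5% lower in KO, and with total-count scaling 2.97% were higher and 9.94% lower. The median log2 fold change of the 17 synthesis enzymes was 0.01, from -0.38 for Dhcr7 to 0.18 for Idi1. Idi1 had 1060, 1030, 1150, 1090 and 1050 CPM in KO LPS, against 982, 875, 1020, 978 and 891 CPM in WT LPS, so the groups did not overlap (0.18 ± 0.06, edgeR adjusted p = 0.064). It was called higher with DESeq2 (0.21, adjusted p = 0.0071) and with RLE scaling in edgeR (0.21, adjusted p = 0.029).

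This count depended on WT LPS replicate 2. Without that library 2 members were called higher and 8 lower in KO LPS, among 27.9% of all genes, 13.8% higher and 14.2% lower. The members called in either direction were thus near the share of all genes. Abcg1 was then higher by 0.48 (edgeR adjusted p = 0.00095, against 0.28, adjusted p = 0.20 with all libraries), with 156 to 212 CPM in the 5 KO LPS libraries against 116 to 164 CPM in the other 4 WT LPS libraries, ranges that overlapped, and Npc2 by 0.24 (adjusted p = 0.0015). Lower were Dhcr7 (-0.57, edgeR adjusted p = 0.00024), Srebf1 (-0.37, adjusted p = 0.00041), Tm7sf2 (-0.48), Ebp (-0.30), Acat2 (-0.29), Mvk (-0.23), Lss (-0.20) and Soat1 (-0.15). Without both LPS libraries numbered replicate 2, 3 members were higher (Idi1, Abcg1 and Npc2) and 5 lower (Ebp, Dhcr7, Acat2, Srebf1 and Soat1). Over all genes 27.1% were then called, 14.7% higher and 12.4% lower, so the members were again near that share. With all libraries, 4 of the 9 type 1 dendritic cell markers were called lower and 1 higher in KO LPS, and 4 of the 20 cell cycle genes were called lower; their part in these values was not tested.

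**Figure D5:**
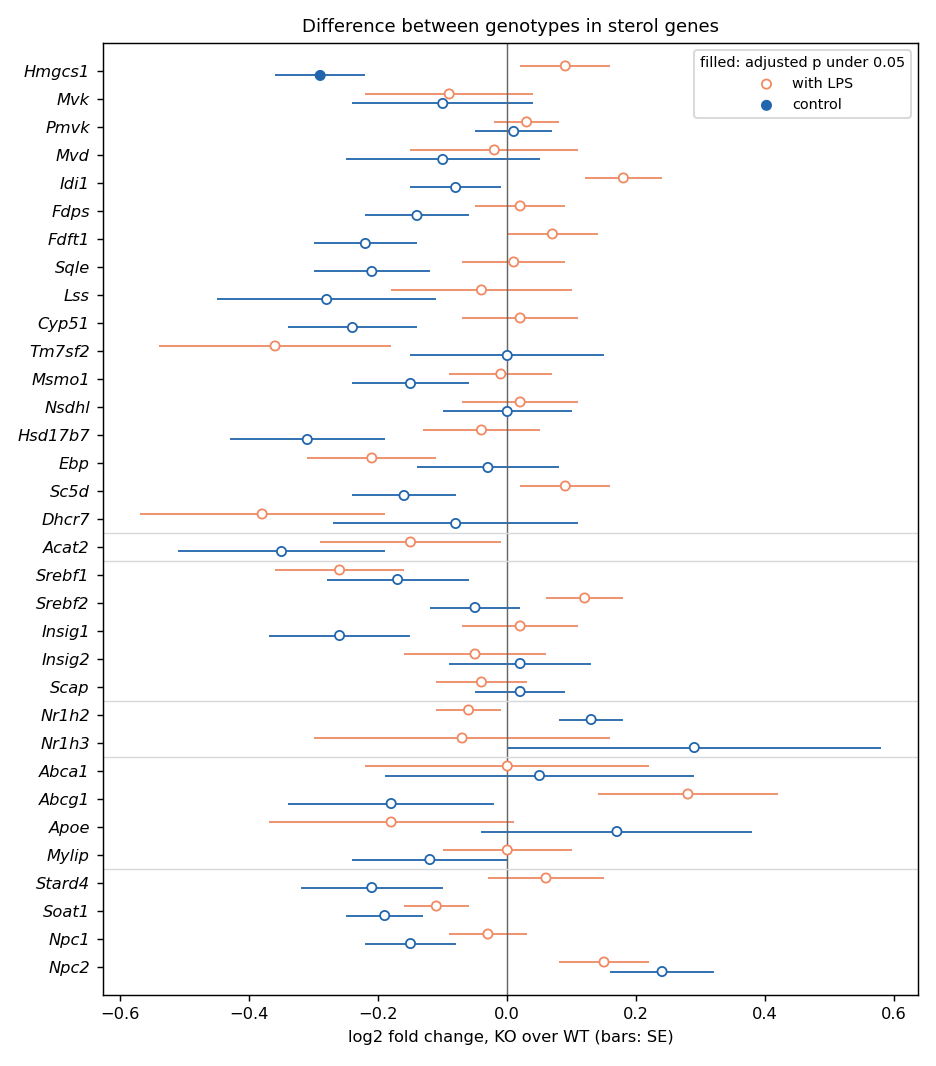
Log2 fold change of KO over WT (horizontal axis) for each of the 33 genes, with LPS (upper point of each pair) and in control cells (lower point), with SE bars and filled points for an adjusted p under 0.05. Hmgcs1 in control cells, at -0.29, is the filled point, and 15 of the 17 synthesis enzymes lie below 0 in control cells.

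The LPS response itself was called different between genotypes in 1 of the 33 members. The interaction called Hmgcs1, with a response larger in KO than in WT by 0.38 ± 0.10 on the log2 scale (edgeR adjusted p = 0.039). Most of this came from the lower control level in KO. Hmgcs1 in KO against WT was at -0.29 in control cells and at 0.09 with LPS, where it was not called (edgeR adjusted p = 0.41). Over all genes 3.82% were called in the interaction test, 1.03% higher and 2.79% lower. The Hmgcs1 call held in 9 of 18 fits that left out a library (adjusted p = 0.022 to 0.096) and ended with total-count scaling (0.34, adjusted p = 0.11). DESeq2 also called Idi1 (0.30, adjusted p = 0.018) and Fdft1 (0.33, adjusted p = 0.040), and edgeR with runs of library numbers as a block also called Fdft1 (0.30, adjusted p = 0.036) and Apoe (-0.32, adjusted p = 0.019). Without WT LPS replicate 2, the larger LPS response of Abcg1 in KO was also called (0.66, edgeR adjusted p = 0.0054, against 0.46, adjusted p = 0.25 with all libraries), as was the larger fall of Dhcr7 (-0.50, adjusted p = 0.020). The comparisons share their control and LPS libraries, so their values are not independent of each other.

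Other genes of the pathway were read from lists, beside the 40% of all genes called higher and 46.2% lower with LPS in KO and the 40.7% and 44.7% in WT. Of 12 tested genes of other sterol and isoprenoid synthesis, 4 rose and 7 fell with LPS in KO (33.3% and 58.3%), and 4 rose and 6 fell in WT (33.3% and 50%), near these shares. Pdss1, which starts the side chain of coenzyme Q, rose by 2.16 in KO and 2.15 in WT, whereas Lbr, the second sterol C14-reductase, fell by 1.75 and by 1.61. Lbr averaged 40.6 ± 3.62 CPM in KO LPS against 136 ± 2.52 CPM in KO control and 48.7 ± 11.8 CPM in WT LPS against 149 ± 4.26 CPM in WT control, so both genes for that reductase step were lower with LPS. Fntb, a subunit of protein farnesyltransferase, fell by 1.10 in KO and by 1.12 in WT.

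Of 13 tested SREBP-1 targets of fatty acid synthesis, 5 rose and 5 fell in KO (38.5% each) and 5 rose and 4 fell in WT (38.5% and 30.8%), with medians of -0.20 and -0.11; the share that rose was near that of all genes. Fads1, the delta-5 desaturase, fell by 3.01 in KO and by 2.60 in WT, to 10.1 ± 1.28 CPM in KO LPS against 81.9 ± 2.84 CPM in KO control and 13.5 ± 4.08 CPM in WT LPS against 82.0 ± 3.82 CPM in WT control. Gpam and Lpin1, which act in glycerolipid synthesis, fell by 1.34 and by 1.26 in KO and by 1.32 and by 1.19 in WT. Of 11 genes of SREBP processing and sterol sensing, 2 rose and 5 fell in each genotype (18.2% and 45.5%), so the falls were near the share of all genes. Rnf139, a sterol-sensing ubiquitin ligase, rose by 1.54 in KO and 1.48 in WT, and Mbtps1, the site-1 protease that cleaves SREBP, fell by 0.53 and by 0.55.

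Among 14 tested LXR partners and other LXR targets, 6 rose and 4 fell in KO (42.9% and 28.6%) and 8 rose and 4 fell in WT (57.1% and 28.6%), and the share called in either direction was 71.4% in KO and 85.7% in WT, beside 86.2% and 85.5% of all genes. Rxra, which encodes the RXR partner of the LXR receptors, fell to 2.54 ± 0.644 CPM in KO LPS against 40.3 ± 3.81 CPM in KO control and 2.71 ± 0.293 CPM in WT LPS against 39.5 ± 2.58 CPM in WT control, by 3.98 in KO and by 3.86 in WT. Rxrb, another RXR gene, fell by 1.35 in KO and by 1.22 in WT. Tgm2, a transglutaminase gene, rose by 1.45 in KO and 1.77 in WT.

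Of 4 tested oxysterol genes, 1 rose and 3 fell in each genotype, where 86.2% of all genes in KO and 85.5% in WT were called. Ch25h, the cholesterol 25-hydroxylase, had 13.2 ± 4.74 CPM in KO LPS and 9.92 ± 3.94 CPM in WT LPS (SD, n = 5 each), and 3 reads over the 4 KO control libraries and 2 over the 4 WT control libraries. The ratio of summed scaled counts was 629 in KO (95% exact interval 215 to 3050) and 711 in WT (196 to 5880), which covers counting error only. Hsd3b7, a bile acid synthesis enzyme that also clears oxysterols, fell by 1.86 in KO and by 1.22 in WT. Between genotypes it was higher in KO control (31.6 ± 0.893 CPM against 25.6 ± 2.02 CPM in WT control, 0.30 ± 0.08, edgeR adjusted p = 0.039) and lower in KO LPS (8.67 ± 0.698 CPM against 11.0 ± 1.18 CPM in WT LPS, -0.34 ± 0.08, adjusted p = 0.0094), and the interaction was called (-0.64 ± 0.11, adjusted p = 0.0023). The control call ended with RLE scaling (adjusted p = 0.053), total-count scaling (adjusted p = 0.15), no low-count filter (adjusted p = 0.055), the block by title number (adjusted p = 0.059) and most omissions of a single library, and the LPS call with only the LPS groups fitted (adjusted p = 0.053).

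Of 18 tested genes of sterol uptake, storage, release and transport, 10 rose and 4 fell with LPS in KO (55.6% and 22.2%), and 10 rose and 5 fell in WT (55.6% and 27.8%); the 77.8% and 83.3% called in either direction were below the shares of all genes. Stard3, a late endosomal sterol transporter, rose by 1.77 in KO and 1.80 in WT. Scarb1, a receptor for high-density lipoprotein, fell by 1.92 in KO and by 1.69 in WT. With LPS, the scavenger receptor gene Cd36 was higher in KO, 292 ± 15.5 CPM against 235 ± 12.7 CPM in WT LPS (0.31 ± 0.05, edgeR adjusted p = 0.00029), and no KO library overlapped a WT library. Elovl6, a fatty acid elongase gene, was lower in KO LPS at 19.8 ± 2.44 CPM against 32.7 ± 10.3 CPM in WT LPS (-0.72 ± 0.17, edgeR adjusted p = 0.0091), a call that ended with only the LPS groups in the fit (adjusted p = 0.065). Without WT LPS replicate 2, further listed genes were called between KO LPS and WT LPS by edgeR: Fads1 (-0.59, adjusted p = 1.6e-05), Lbr (-0.40), Tmem97, a regulator of Npc1 (-0.39), and Scarb1 (-0.34) lower, and Rnf139 (0.22) and Ch25h (0.64) higher. The interaction was then called for Elovl6 (-0.70), Fads1 (-0.59), Scarb1 (-0.36) and Scarb2, a lysosomal membrane protein gene (0.19).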

How the data were processed

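RNA was sequenced from 18 libraries as 150-base pairs on the DNBSEQ platform, per the labels' protocols. HISAT, Bowtie2 and build GRCm39 are named, with no roles, in the submitters' processing notes; of versions, annotation and counting program nothing is said there. The authors deposited 1 table of genes by libraries, in which the headers mark read counts, TPM and FPKM. The deposited read counts are unnormalised estimated counts, since 6.37% of values differed from a whole number by over 0.001. The deposited TPM values were used here only to compare levels between genes, and the deposited FPKM values were not used. The handling of reads shared by paralogs is unstated.

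Estimated counts were rounded, filtered with edgeR (minimum count 10, minimum total 15) and scaled by TMM. The quasi-likelihood test of edgeR 4.0.16 (R 4.3.3) used all 18 libraries, 1 coefficient per group and 5 contrasts. Calls needed an adjusted p (Benjamini-Hochberg, 11989 genes) under 0.05. CPM values are TMM-scaled, and log2 CPM has a prior count of 2. Library totals were 25590104 to 27375189 estimated counts. Replicates differed by more than counting error (chi-square per degree of freedom 2.75 to 78.2 over 32 pairs), so none was merged. The fit was also run on simulated counts, for KO against WT with LPS only. They were drawn from the WT means and the spread of these data, so they meet the model's assumptions and hold no library that stands apart. That run therefore says nothing about how such a library affects the calls.

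Members, lists and tests were chosen with earlier results of these data known. All members were named; of each further list, at most 3 called genes per contrast with the largest absolute change, reaching 5 CPM in a compared group, and some were left out. Alternatives were DESeq2 1.42.0, RLE and total-count scaling, no filter, only the compared groups, replicate blocks and each library left out. Leaving out both LPS libraries numbered replicate 2 was added after seeing the data. Same-numbered samples did not deviate together in every pair (correlations -0.221 to 0.353). Runs of 4 consecutive library numbers did so in the WT LPS and WT control pairs (0.14 to 0.273, 4 of 4), where the block changed no count of member calls, and not in KO (2 of 4).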

Additional observations from a re-analysis of the deposited data

Results flagged for a closer look

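Of 132 tests of a gene within a group, 10 had a library whose gap to its nearest neighbour exceeded Dixon's 95% value for the group size. Chance flags about 1 in 20 such groups.

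In WT LPS replicate 2, Dhcr7 was low at 7.81 CPM (nearest library 17.8), Acat2 was low at 45.4 CPM (nearest 76.5), Srebf2 was low at 803 CPM (nearest 939) and Nr1h3 was high at 11.2 CPM (nearest 6.65). Nr1h3 was likewise high in KO LPS replicate 2, at 11.4 CPM (nearest 6.01). These 2 libraries also had the highest means of monocyte and macrophage markers, and the part of such cells was not tested.

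In KO control replicate 4, Idi1 was high at 123 CPM (nearest 106), Srebf2 was low at 538 CPM (nearest 641) and Npc1 was low at 53.0 CPM (nearest 61.4). Tm7sf2 was high in WT control replicate 2, at 5.17 CPM (nearest 3.72), and Sc5d was low in WT control replicate 4, at 36.9 CPM (nearest 42.0).

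The response of Hmgcs1 to LPS differed between KO and WT by 0.38 on the log2 scale in the interaction test (edgeR adjusted p = 0.039), the called member of 33. Its KO against WT value was -0.29 in control cells and 0.09 with LPS.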

How the results depend on the processing

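The LPS calls depended on total-count scaling more than on the other settings. Members called higher numbered 25 in KO and in WT with DESeq2 and with RLE scaling, and leaving out each library gave 24 to 25 in both. Those called lower numbered 5 in KO with DESeq2 and with RLE scaling, where Ebp and Srebf1 lost their calls, 5 in WT, and 6 to 7 in KO and 5 to 6 in WT when libraries were left out. With total-count scaling, 20 members were higher and 10 lower in KO and 20 higher and 11 lower in WT, and signs turned for Srebf2 (-0.09 in KO, -0.21 in WT), Nr1h2 (-0.54, -0.31), Soat1 (-0.54, -0.58), Apoe (-0.26 in KO), Abca1 (-0.75 in WT) and, of the listed genes, Rnf145 (-0.65 in KO); this follows from the shift of the median of all genes. The synthesis minus efflux difference ranged from 0.57 to 0.75 for LPS in KO and 0.46 to 0.83 in WT, from -0.22 to -0.09 between genotypes in controls, from -0.30 to 0.07 with LPS and from -0.18 to 0.20 for the interaction when libraries were left out.

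Calls between genotypes were not steady, and the cause was not tested. In control cells, members lower in KO numbered 2 with DESeq2, 0 with total-count scaling, 0 without the filter, 9 with only the control groups, 9 without both LPS libraries numbered replicate 2, and 0 to 7 when each library was left out; 1 was higher with only the control groups, 1 without both libraries and 0 to 1 in the single omissions. Of these, synthesis enzymes numbered 0, 0, 4 and 5 under total-count scaling, no filter, only the control groups and without both libraries, and 0 to 4 in the single omissions. With LPS, 1 member, the enzyme Idi1, was higher with DESeq2 and 1 with RLE scaling. Without both libraries 3 members were higher and 5 lower, of which 1 and 2 were synthesis enzymes, and single omissions gave 0 to 2 higher and 0 to 8 lower, with 0 to 1 and 0 to 5 synthesis enzymes. For the interaction, 3 members, all synthesis enzymes, were higher with DESeq2, 0 with total-count scaling, and 4 higher (3 enzymes) and 1 lower (1 enzyme) without both libraries; single omissions gave 0 to 2 higher (0 to 1 enzyme) and 0 to 1 lower (0 to 1 enzyme).

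Over all genes, the share called between genotypes in control cells was 2.41%, against 4.12% with DESeq2, 1.51% without the filter, 7.71% with only the control groups, 6.88% without both libraries and 0.945% to 6.28% in the single omissions. With LPS it was 10.8%, against 5.53% with only the LPS groups and 27.1% without both libraries, and for the interaction 3.82%, against 6.78% with DESeq2, 2.1% without the filter and 13.3% without both libraries.

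The replicate block by title number gave 25 higher and 7 lower in KO with LPS, 25 and 5 in WT, 1 lower in control cells, 0 with LPS and 1 for the interaction. The block by runs of library numbers gave 8 members lower in KO with LPS, Abca1 among them (-0.31, edgeR adjusted p = 0.011), 1 lower between genotypes with LPS (Srebf1), and 2 higher (both enzymes) and 1 lower (Apoe) for the interaction; the share of all genes called was then 5.12% in control cells, 16% with LPS and 7.36% for the interaction. The interaction has no fit with only the compared groups, since it uses all of them. Depth limits the low genes most, such as Tm7sf2 and Nr1h3.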
